A study of Mus musculus with 12 samples.

Results

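S100a8 and S100a9, the genes of the calprotectin subunits, were followed across mouse skin libraries. They were chosen by name as the pair that forms calprotectin, and both were found among the 53465 gene identifiers counted in each library. Both were also among the 15126 genes with enough counts to be tested. The series sequenced bulk RNA from skin in 12 libraries, 3 in each of 4 groups. WT untreated and WT UVB are an unexposed and a UVB-irradiated skin site of mice with wild-type Foxp3, a transcription factor of regulatory T cells. DE2 untreated and DE2 UVB are the same sites in mice with an altered Foxp3. That genotype is spelled Foxp3-E2 on the samples, Foxp3-DE2 in the protocol and Foxp3dExon2 in the title, and is taken here as 1 genotype and called DE2. Irradiation was 6 doses of ultraviolet B light to a shaved patch of the back flank. The size of a dose is 200 mJ/cm2 on the samples and 100 mJ/cm2 in the protocol. The sources used here do not give age, sex, strain or the time between the last dose and sampling. Libraries are not tied to animals, so the spread between libraries may be partly technical and the sites may share animals. Replicate numbers only name libraries.

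Calprotectin is a pair of small calcium-binding proteins of the S100 family that join as a heterodimer. It is abundant in the cytoplasm of neutrophils and monocytes, binds zinc and manganese and so withholds them from microbes, and outside the cell acts as an alarm signal through receptors such as TLR4 and RAGE. Healthy epidermis holds little of it, while wounded or inflamed keratinocytes produce both subunits, so in skin the transcripts can come from blood-derived cells or from the epidermis. Bulk counts cannot tell more cells of a type from more RNA per cell.

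Both genes lie in the S100 cluster on chromosome 3 (GRCm38, GENCODE annotation, positions counted from 1). S100a8 (ENSMUSG00000056054) runs from 90668978 to 90670035 on the plus strand. S100a9 (ENSMUSG00000056071) runs from 90692632 to 90695721 on the minus strand. They are read toward each other and are 22596 bp apart, and no annotated gene overlaps either of them. Their exons cover 694 and 522 bp. The promoters are shown because the transcripts of the pair rose together, and because the factors C/EBP, AP-1 and STAT3 are known to act on these genes. Each window holds 250 bases before and 50 after the RefSeq start (GRCm38.p6), 5′ to 3′ on the strand of the gene. S100a8 is chr3:90668821-90669120, plus strand, and S100a9 is chr3:90695672-90695971, minus strand. Capitals mark matches to the C/EBP letters TTNNGNAA on either strand and to the TATA letters TATAAA on the strand of the gene.
S100a8: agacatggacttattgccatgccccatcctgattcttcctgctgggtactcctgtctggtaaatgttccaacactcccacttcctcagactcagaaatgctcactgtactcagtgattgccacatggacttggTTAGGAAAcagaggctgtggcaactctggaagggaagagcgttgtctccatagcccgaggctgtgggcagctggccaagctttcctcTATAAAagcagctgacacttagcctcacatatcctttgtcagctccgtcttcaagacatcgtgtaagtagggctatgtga
S100a9: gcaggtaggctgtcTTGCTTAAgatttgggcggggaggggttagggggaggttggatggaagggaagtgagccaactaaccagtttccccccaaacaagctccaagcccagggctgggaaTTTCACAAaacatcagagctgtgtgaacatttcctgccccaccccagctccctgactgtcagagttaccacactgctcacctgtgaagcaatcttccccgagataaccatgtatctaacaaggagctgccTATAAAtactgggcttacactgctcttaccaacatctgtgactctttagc
The S100a8 window holds 1 C/EBP match, at -117 from the start, and TATAAA at -30. The S100a9 window holds C/EBP matches at -236 and -130, both on the opposite strand, and its TATAAA begins at the annotated start itself, position 1. Neither window matched the AP-1 letters TGANTCA or the STAT letters TTCNNNGAA on either strand. Of 32851 RefSeq promoter windows of this length, 40.7% hold the C/EBP letters, 8.32% TATAAA, 7.81% the AP-1 letters and 8.30% the STAT letters. The matches describe letters, not binding.

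Total counts were 2809142 to 4741726 per library. Skin structural genes were present in every library, with Krt5, Krt14 and the collagens among 10 listed markers, none of which lacked counts in a group. Foxp3 itself had 8 counts in all, 1 and 7 in DE2 UVB replicates 1 and 2, so its level checks no label. The untreated DE2 libraries stood apart. Hair follicle keratins and regulators took 0.0121% to 0.0718% of their counts, against 0.892% to 3.19% in the other 9 libraries. Skeletal muscle genes took 5.50% to 9.51% of their counts, against 1.32% to 5.15% elsewhere. Every comparison with DE2 untreated below carries these differences in tissue content, and their part in the result was not tested. Among the DE2 untreated libraries, replicate 2 had far more calprotectin transcript than the other two, so results that use it are also given without it.

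S100a8 had 97, 196 and 176 counts in the WT untreated libraries. It had 840, 676 and 403 in WT UVB. In DE2 untreated it had 22, 372 and 12. In DE2 UVB it had 7043, 8991 and 6492, which set these 3 libraries above all others. As CPM (each library's counts divided by its TMM-scaled size) the group means were 34.5 ± 12.4 (SD, n = 3 here and below) in WT untreated and 173 ± 54.1 in WT UVB. They were 38.0 ± 58.3 in DE2 untreated, where 1 library carried the mean, and 2153 ± 226 in DE2 UVB.

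S100a9 had 12, 13 and 74 counts in the WT untreated libraries. It had 542, 573 and 195 in WT UVB. In DE2 untreated it had 17, 205 and 25, again with replicate 2 on top. In DE2 UVB it had 7389, 8823 and 5476 counts. The CPM means were 7.02 ± 7.28 in WT untreated, 116 ± 49.5 in WT UVB, 23.0 ± 30.3 in DE2 untreated and 2047 ± 76.5 in DE2 UVB. For both genes the order of groups was DE2 UVB, then WT UVB, then the untreated groups. The untreated groups overlapped each other, and the DE2 UVB libraries spread least in proportion to their mean.

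**Figure D1:**
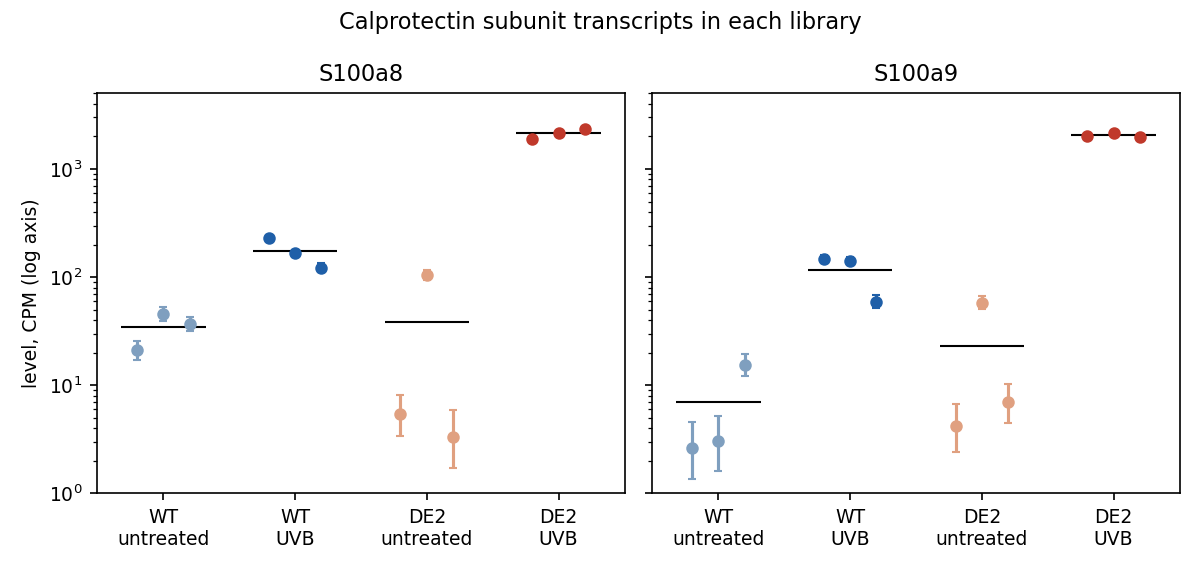
Level of S100a8 and S100a9 in each of the 12 libraries as CPM on a log axis. Points are libraries with exact 95% Poisson intervals, which cover counting error only, and black lines are group means. The 3 DE2 UVB libraries lie at 1916 to 2366 CPM for S100a8 and at 1996 to 2135 CPM for S100a9, and 1 DE2 untreated library lies at 105 and 58.0 CPM, above the other untreated libraries.

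Together the pair made up 0.394% to 0.439% of all counts in the DE2 UVB libraries. The share was 0.0205% to 0.0398% in WT UVB, 0.00274% to 0.00569% in WT untreated and 0.00078% to 0.0131% in DE2 untreated. Per kilobase of exon, with all annotated exons of a gene joined, S100a9 ranked 5 and S100a8 ranked 8 by mean level among 15117 genes in DE2 UVB. Such ranks depend on the annotated lengths. In WT UVB S100a8 ranked 246 and S100a9 ranked 280. In WT untreated the ranks were 1135 for S100a8 and 3840 for S100a9. In DE2 untreated they were 1178 and 1439.

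Irradiated skin of DE2 mice held more of both transcripts than irradiated skin of WT mice. S100a8 was 12.4-fold higher (95% interval 3.31 to 46.7), a log2 fold change of 3.64 ± 0.89 (SE) with an adjusted p of 0.0433 by edgeR's quasi-likelihood test. S100a9 was 17.6-fold higher (5.10 to 60.7), a log2 fold change of 4.14 ± 0.83 with an adjusted p of 0.017 by the same test. All 3 DE2 libraries lay above all 3 WT libraries for each gene. The adjustment is that of Benjamini and Hochberg over the 15126 genes, with a threshold of 0.05. In this comparison 2.35% of genes were called higher and 0.608% lower, and in 21.3% the groups did not overlap. The S100a8 call was narrow: it was lost when any single library of WT untreated, WT UVB or DE2 UVB was left out, with log2 fold changes of 3.44 to 3.90 and adjusted p of 0.0559 to 0.139. The S100a9 call was lost without WT UVB replicate 1 (adjusted p = 0.0627), WT UVB replicate 3 (0.0672) or DE2 UVB replicate 2 (0.0634), with the log2 fold change still at 3.82 to 4.35. In these libraries hair follicle genes took 0.892% to 1.49% of counts in DE2 and 2.26% to 3.19% in WT. With the hair follicle score as a covariate neither gene passed, at 1.96 ± 0.94 for S100a8 (adjusted p = 0.375) and 2.50 ± 0.85 for S100a9 (0.21). With the muscle score S100a8 did not pass (3.56 ± 1.005, adjusted p = 0.0952). The fit shares its spread over all 4 groups, the scattered DE2 untreated group among them. Fitted to the 6 irradiated libraries alone, the changes were 3.63 ± 0.28 (adjusted p = 0.000271) for S100a8 and 4.13 ± 0.35 (0.000333) for S100a9.

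UVB raised both genes in DE2 skin. S100a8 was 56.9-fold higher at the irradiated site (95% interval 12.98 to 249.5), a log2 fold change of 5.83 ± 0.99 with an adjusted p of 0.000889 in edgeR. S100a9 was 89.4-fold higher (22.1 to 361.5), a log2 fold change of 6.48 ± 0.94 with an adjusted p of 0.000275. The groups did not overlap for either gene. This comparison called 14.4% of genes higher and 13.4% lower, and 41.5% had groups that did not overlap. Without DE2 untreated replicate 2 the changes were larger, 8.91 ± 0.50 for S100a8 and 8.51 ± 0.83 for S100a9. The hair follicle list rose in 15 of 15 members and the muscle list fell in 12 of 12 members in the same comparison. With the hair follicle score as a covariate neither gene passed, with log2 fold changes of 14.01 ± 3.59 (adjusted p = 0.467) and 14.5 ± 3.17 (0.411). Hair follicle genes took 0.0121% to 0.0718% of counts in DE2 untreated and 0.892% to 1.49% in DE2 UVB. The score thus nearly repeats these groups, and this fit could not separate it from the UVB change. In it 1 gene passed in place of 4202. With the muscle score S100a8 did not pass either (7.30 ± 1.86, adjusted p = 0.0639).

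In WT skin both genes were higher in every irradiated library than in every untreated one, yet neither passed the threshold. S100a8 had a log2 fold change of 2.33 ± 0.86 (95% interval 0.49 to 4.17), unadjusted p = 0.017 and adjusted p = 0.939 in edgeR. S100a9 had 4.03 ± 0.87 (2.15 to 5.91), unadjusted p = 0.000436 and adjusted p = 0.366. Hardly any gene passed here. edgeR called 3 genes higher (0.0198%: Flg, Klk6 and Rbp2, named because they are so few) and 0 lower (0.00%). At an unadjusted p under 0.05 there were 365 higher and 324 lower. DESeq2 called 22 genes in all and limma voom 3, and 10.1% of genes had groups that did not overlap. Without DE2 untreated replicate 2, whose scatter enters the shared spread, the same changes in WT passed, with adjusted p of 0.0177 for S100a8 (2.34 ± 0.31) and 0.0225 for S100a9 (4.05 ± 0.57).

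Between the genotypes at the untreated site no difference was called for either gene. S100a8 had a log2 fold change (DE2 over WT) of 0.13 ± 0.84 (95% interval -1.67 to 1.94), adjusted p = 0.931 in edgeR. S100a9 had 1.68 ± 0.85 (-0.14 to 3.50), adjusted p = 0.173. The intervals allow changes of several fold in either direction for S100a8 and upward for S100a9, and the groups overlapped for both genes. Of all genes tested 11.8% were called higher and 11.2% lower, and 39.8% had groups that did not overlap. The S100a8 value rests on 1 library. Without DE2 untreated replicate 2 it was -2.93 ± 0.41 with an adjusted p of 0.000337, lower in DE2, and S100a9 was -0.33 ± 0.68 (adjusted p = 0.796).

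The interaction, the UVB change in DE2 minus that in WT, tests directly whether UVB acted differently in the 2 genotypes. Neither gene passed it in edgeR. S100a8 had a difference of log2 fold changes of 3.50 ± 1.19 (95% interval 0.95 to 6.06, adjusted p = 0.0752), and S100a9 had 2.45 ± 1.13 (0.02 to 4.89, adjusted p = 0.185). Of all genes tested 5.64% were called with a higher and 4.84% with a lower UVB change in DE2. Without DE2 untreated replicate 2 both genes passed, at 6.57 ± 0.52 (adjusted p = 2.35e-05) and 4.46 ± 0.87 (0.00958). The 5 comparisons share groups of libraries and are not independent of each other.

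**Figure D2:**
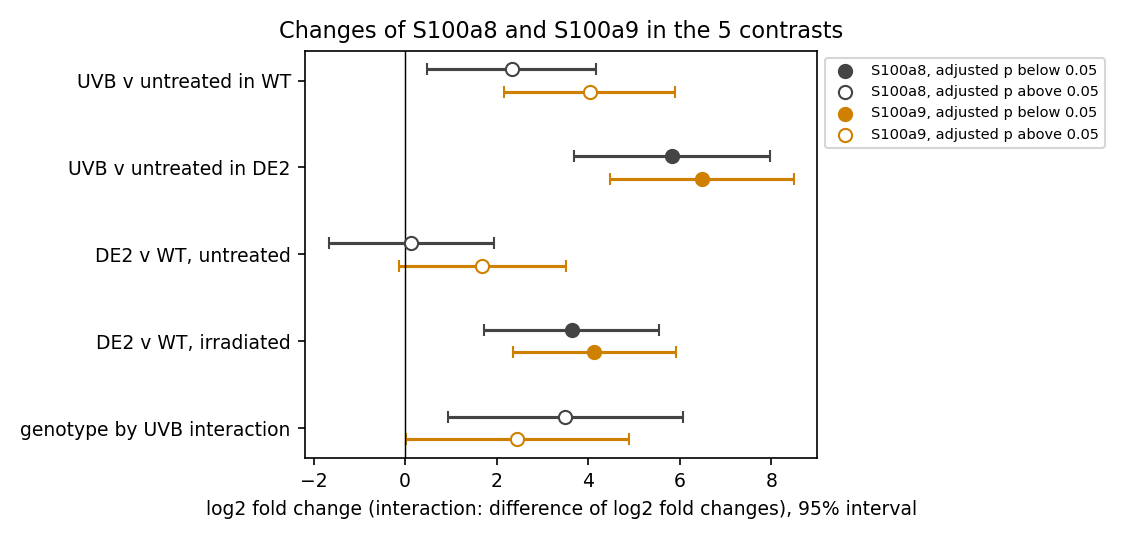
Log2 fold change of S100a8 (grey) and S100a9 (orange) in the 5 contrasts of the edgeR fit to 12 libraries. For the interaction the x axis is a difference of log2 fold changes. Bars are 95% intervals, filled points have an adjusted p below 0.05 and open points above it. Filled points stand only at UVB in DE2 and at DE2 v WT in irradiated skin.

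The balance between the subunit transcripts also differed between libraries. In WT untreated there were 8.08, 15.1 and 2.38 S100a8 counts for each S100a9 count. In WT UVB the ratio was 1.55, 1.18 and 2.07. In DE2 untreated it was 1.29, 1.82 and 0.48. In DE2 UVB it lay close to 1 in every library, at 0.953, 1.02 and 1.19. S100a9 had only 12 and 13 counts in the WT untreated libraries with the highest ratios, so their exact 95% intervals are wide (4.42 to 16.2 and 8.61 to 28.8). The log2 ratio was lower in DE2 than in WT by a mean difference of -1.62, with an exact two-sided permutation p of 0.01 (labels permuted within each treatment, 400 arrangements, smallest possible p 0.005), or 0.02 adjusted over the 2 ratio tests. The difference was -2.67 at the untreated site and -0.57 in irradiated skin. It no longer passed without DE2 untreated replicate 3 (-1.34, exact permutation p = 0.055). Between irradiated and untreated sites the difference was -1.04, with an exact permutation p of 0.135 (0.135 adjusted). It was -2.09 within WT and 0.01 within DE2. Without DE2 untreated replicate 3 it was -1.32, with an exact permutation p of 0.005. Per kilobase of annotated exon, S100a9 had the higher level in each DE2 UVB library. The values were 3851 against 2761, 4090 against 3135 and 3824 against 3410 CPM per kilobase. The lengths join all annotated exons of a gene, 694 bp for S100a8 and 522 bp for S100a9. They may exceed the transcript present, so this order depends on the annotation.

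**Figure D3:**
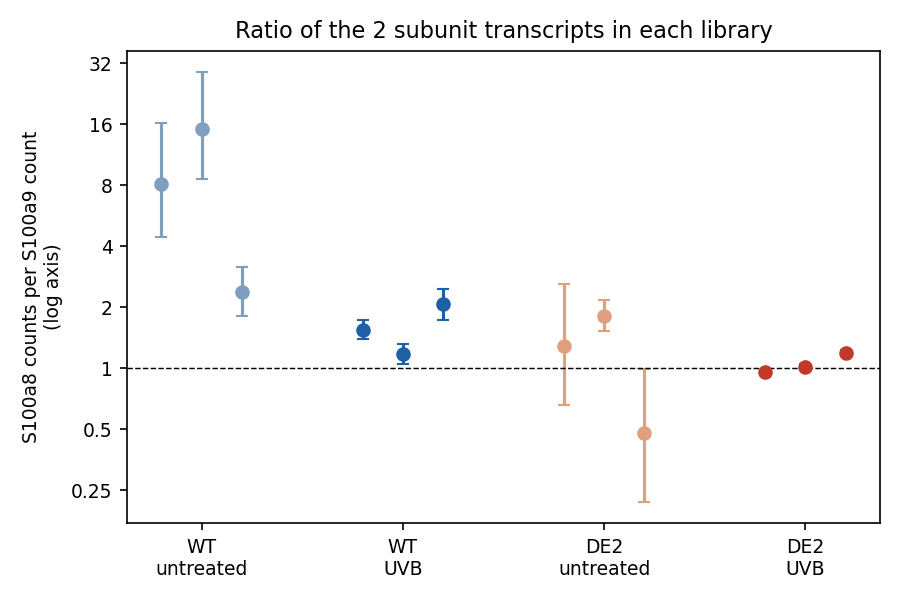
S100a8 counts per S100a9 count in each library, on a log axis with a dashed line at 1. Bars are exact 95% intervals for counting error. The WT untreated libraries spread from 2.38 to 15.1, and the DE2 UVB libraries lie between 0.953 and 1.19.

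The other S100 genes were read in the same fit. Of 14 listed, 11 were tested. In irradiated skin 1 of the 11 was called higher in DE2, S100a11, a widely expressed S100 protein, at 1.33 ± 0.20 (adjusted p = 0.00243 in edgeR), and none was called lower. DESeq2 called 1 higher and 1 lower, and at an unadjusted p under 0.05 there were 1 and 2. The median log2 fold change of the 11 was 0.17, beside -0.03 over all genes tested, of which 2.35% were called higher and 0.608% lower. S100a7a, the nearest S100 gene to S100a8 and related to human psoriasin, had 108, 119 and 101 CPM in WT UVB and 70.7, 69.0 and 60.2 CPM in DE2 UVB. Its change was -0.71 ± 0.46 (adjusted p = 0.527), with all DE2 libraries below all WT libraries. In DE2 skin UVB raised 6 of the 11 and lowered 1, beside 14.4% and 13.4% of all genes tested. S100a7a rose by 6.20 ± 0.69 and S100a3, a gene of the hair cuticle, by 5.29 ± 0.47. S100a16, S100a6, S100a14 and S100a11 rose by 0.83 to 1.20, and S100a1 fell by 0.92. At the untreated site S100a7a was lower in DE2 by a log2 fold change of -6.15 ± 0.68 and S100a3 by -5.86 ± 0.49, beside the low hair follicle share of those libraries. S100a14 and S100a16 were lower there too, at -0.90 ± 0.25 and -0.82 ± 0.22. Within 120 kb of the pair 16 genes and pseudogenes are annotated, the pair included, and 7 of them were tested. Pglyrp4, a peptidoglycan recognition protein and the tested neighbour beyond S100a9, was higher in irradiated DE2 skin by 1.91 ± 0.40 (adjusted p = 0.0199).

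**Figure D4:**
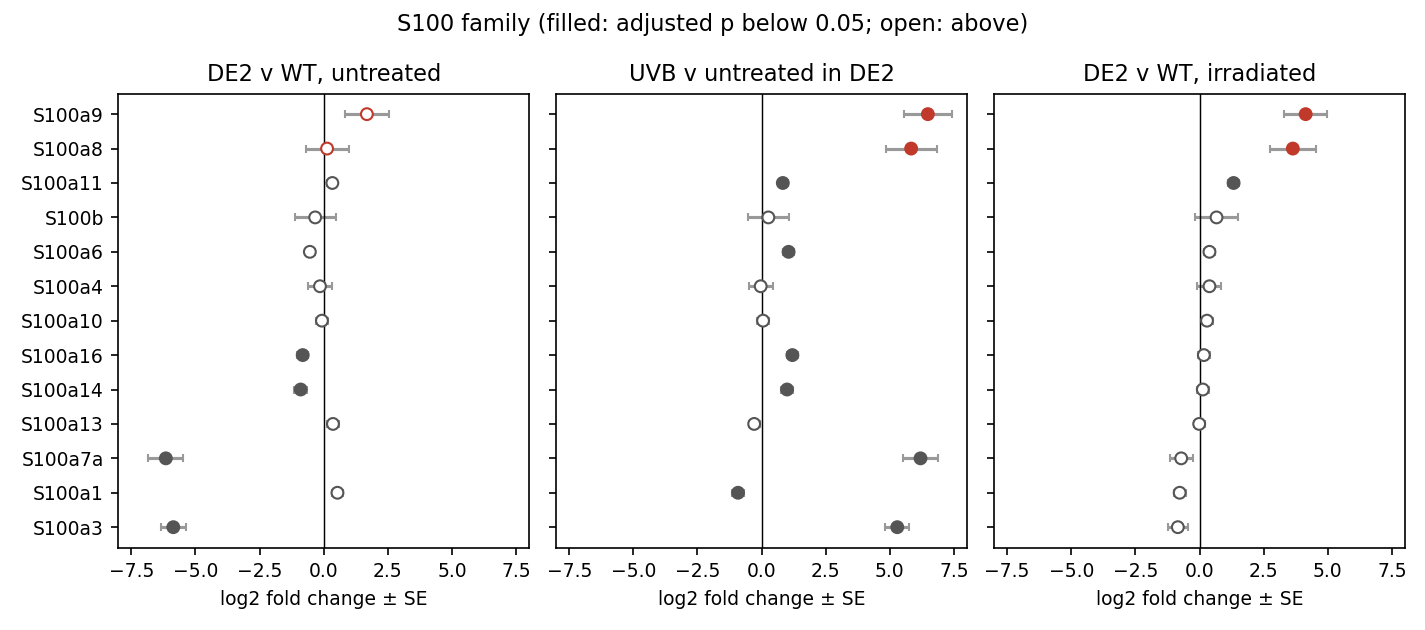
Log2 fold change ± SE of 13 tested S100 genes in 3 contrasts of the edgeR fit, with S100a8 and S100a9 in red. Filled points have an adjusted p below 0.05. In irradiated skin only S100a9, S100a8 and S100a11 are filled, and at the untreated site S100a7a and S100a3 lie near -6 while the pair does not pass.

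Among 12 genes listed as receptors or partners of calprotectin, 11 were tested and 1 was called in irradiated skin. Cd14, the co-receptor that hands ligands to TLR4, had 47, 57 and 43 counts in WT UVB and 1292, 1222 and 331 in DE2 UVB. It was higher in DE2 by 4.26 ± 0.47 (adjusted p = 0.000395 in edgeR). Tlr4 itself was low throughout, with 40, 10 and 8 counts in WT UVB and 27, 37 and 1 in DE2 UVB, a change of 0.09 ± 1.07 (95% interval -2.18 to 2.37). Ly96, which encodes the TLR4 partner MD-2, had 1.20 ± 0.40 (adjusted p = 0.137). Ager, the gene of RAGE, had -0.44 ± 1.23 on 30 counts in WT UVB and 24 in DE2 UVB. Cd33 had 16, 5 and 3 counts in WT UVB and 49, 113 and 61 in DE2 UVB, which did not overlap, and did not pass (3.25 ± 0.84). The median of the 11 was 0.21, and 2.35% of all genes tested were called higher in irradiated DE2 skin. UVB in DE2 skin raised Cd14 (4.87 ± 0.49) and Alcam (1.82 ± 0.37) and lowered Cd36 (-1.93 ± 0.27) and Bsg (-0.70 ± 0.23). These are 2 of 11 higher and 2 of 11 lower, beside 14.4% and 13.4% of all genes tested. Mean CPM in DE2 untreated and WT untreated was 8.62 and 3.59 for Cd14 and 11.4 and 92.2 for Alcam. It was 358.5 and 173.5 for Cd36 and 1062 and 479.4 for Bsg. Of 6 NADPH oxidase genes, the enzyme complex to which calprotectin delivers arachidonic acid in phagocytes, Cyba alone was called in irradiated skin, higher in DE2 by 1.38 ± 0.30 (adjusted p = 0.0238). The median of the 6 was 1.33.

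Cytokines known to induce S100a8 and S100a9 in epidermis or myeloid cells were listed as 16 genes, of which 10 were tested. Csf3, Il19, Il24, Osm and Tnf reached the filter on low counts only through the DE2 UVB libraries, so for these 5 a higher level there is not a result. Of the other 5, edgeR called 1 higher in irradiated DE2 skin, Il1b, as it did 2.35% of all genes. All 5 had groups that did not overlap, as did 21.3% of all genes. Il1b had 42, 46 and 31 counts in WT UVB and 4262, 3375 and 798 in DE2 UVB, a log2 fold change of 6.13 ± 0.75 (adjusted p = 0.0011). Osm, the gene of oncostatin M and one of the 5 that reached the filter through DE2 UVB, had 0, 0 and 1 counts in WT UVB and 496, 597 and 108 in DE2 UVB. Il1f6, which encodes IL-36 alpha, had 1.98 ± 0.52 and did not pass (adjusted p = 0.0569). Of 15 tested transcription factors tied to the pair, 3 were called higher: Stat3 (1.27 ± 0.18), Hif1a (1.34 ± 0.20) and Klf4 (0.90 ± 0.21). DESeq2 called 7 of them and limma voom 5, out of 876 and 574 genes called in all, and their median was 0.85. Of 8 tested metal-handling genes 0 passed in edgeR, 1 at an unadjusted p under 0.05, 0 in DESeq2 and 1 in limma voom. Lcn2, whose product binds bacterial iron carriers, had 8, 39 and 7 counts in WT UVB and 293, 193 and 97 in DE2 UVB (3.51 ± 0.91, adjusted p = 0.0555). The median of the 8 was -0.33.

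Krt16, Krt6b, Sprr2e and Krt6a led the genes whose levels ran most like the pair over the 12 libraries. Likeness was Pearson's r between a gene's log2 CPM and the mean log2 CPM of S100a8 and S100a9, over 13734 genes whose mean log2 CPM reached 1. The libraries share 4 groups, so r mostly repeats the group pattern, and a second r after subtracting group means is given in brackets. DE2 untreated replicate 2 weighs on that second r, with S100a8 at 105 CPM against 5.36 and 3.33 in its group. Krt6b was there at 108 CPM against 1.71 and 3.33, and Krt16 at 189 CPM against 48.5 and 37.2. The second r was not computed without that library. The 8 most alike were Krt16 at 0.988 (0.897), Krt6b at 0.981 (0.927), Sprr2e at 0.978 (0.868), Krt6a at 0.978 (0.857), 2610528A11Rik at 0.974 (0.756), Lce3b at 0.969 (0.740), Teddm3 at 0.968 (0.734) and Stfa2 at 0.966 (0.763). Krt6a, Krt6b and Krt16 are keratins that wounded and hyperproliferating epidermis switches on, and Sprr2e and Lce3b belong to families of cornified envelope proteins. Counts of the Sprr2 and Stfa families, and of Krt6a and Krt6b, are uncertain because near-identical copies can share reads. S100a8 and S100a9 had an r of 0.934 with each other (0.801 within groups). With a prior count of 5 in place of 1, 7 of the 8 stayed among the 8 most alike, and by Spearman's rho 5 did.

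Marker lists of the cell types that carry calprotectin were read in the same libraries. Of 14 stressed keratinocyte genes, all tested, 13 passed the filter without the DE2 UVB libraries. Of these 13, edgeR called 8 higher in irradiated DE2 skin and none lower, with a median of 2.66. Over all genes tested 2.35% were called higher there and 0.608% lower. The list's summed level was 19830 to 24890 CPM in DE2 UVB, 2978 to 4749 in WT UVB, 1326 to 2110 in WT untreated and 715 to 1099 in DE2 untreated. Sprr2b (5.58 ± 0.68), which reached the filter only through DE2 UVB, Slpi (3.72 ± 0.52), a protease inhibitor, and Krt6a (3.12 ± 0.46) had the smallest p. UVB in DE2 skin raised 13 of the 13, beside 14.4% of all genes tested. In WT skin UVB moved 0 of 14 past the threshold in edgeR, 10 at an unadjusted p under 0.05, 3 in DESeq2 and 1 in limma voom, with a median of 1.98. Of all 15126 genes tested, 3 passed in edgeR and 365 were higher at an unadjusted p under 0.05. DESeq2 called 22 in all and limma voom 3. With Sprr2b, for which a higher level in DE2 UVB is not a result, the count in irradiated skin was 9 of 14. Without DE2 UVB replicate 3 it was 6.

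Of 18 neutrophil genes 13 were tested, but 6 of them reached the filter only through the DE2 UVB libraries. For these 6 a higher level there is not a result. Of the other 7, edgeR called 3 higher and 1 lower in irradiated DE2 skin, beside 2.35% and 0.608% of all genes tested. Stfa2 (3.42 ± 0.51), Hdc (4.90 ± 0.74) and Clec4d (6.27 ± 0.93) had the smallest p of the 13, and Clec4d is among the 6. The gene called lower was Padi4 (-1.61 ± 0.34), which had 54.2 to 125 CPM in WT untreated and 1.39 to 5.09 CPM in DE2 untreated. The list's summed level was 541 to 1003 CPM in DE2 UVB and 159 to 283 CPM in the other 9 libraries. UVB in DE2 skin raised 4 of the 7, beside 14.4% of all genes tested. Among 9 granule genes of neutrophil precursors 2 were tested, Lcn2 and Chil3, and the latter reached the filter only through DE2 UVB. The 9 genes summed to 45.2 to 95.5 CPM in DE2 UVB and 1.40 to 13.04 CPM in the other 9 libraries. That sum was mostly Lcn2 and Chil3, with 583 and 116 counts over the DE2 UVB group, and the list did not rise as a set. Ltf, Prtn3, Ngp, Camp and Elane had 18, 9, 4, 3 and 2 counts there. Mpo and Ctsg had no counts in any library. Within DE2 UVB, 14 of the 18 neutrophil genes had their lowest CPM in replicate 3. Itgam, Padi4 and Stfa2 lay between the other libraries there, with Stfa2 at 118.6, 156.1 and 130.9 CPM, and Ly6g was tied. Cxcr2, a chemokine receptor of neutrophils, had 117, 93 and 5 counts in DE2 UVB. Retnlg had 209, 103 and 11, Csf3r 140, 153 and 19, Mmp8 58, 30 and 0, Fpr1 33, 35 and 0, and Ly6g 18, 0 and 0. Other members were lowest in replicate 3 by less. Mmp9 had 88.9 CPM there with a highest value of 114 CPM in the group. Itgb2 had 22.2 with a highest of 35.9 CPM, and Il1r2 100.6 with a highest of 185 CPM. The DE2 UVB libraries had 3663976, 4062053 and 2809142 counts in all, and the pair had 14432, 17814 and 11968. Krt6b had 13007, 19087 and 10019 counts and Krt16 had 20190, 31018 and 17785. As CPM the summed calprotectin level was 3926, 4311 and 4363. Krt6b was at 3538, 4619 and 3652 CPM and Krt16 at 5492, 7506 and 6483 CPM. Of the 14 stressed keratinocyte genes 6 had their lowest CPM in replicate 3, 3 had their highest and 5 lay between or tied. What part of the calprotectin transcripts came from keratinocytes or from neutrophils was not tested. Calls without DE2 UVB replicate 3 were counted only over all tested neutrophil genes, with those that reached the filter through DE2 UVB. On that count 4 were called higher and 0 lower in irradiated skin, against 6 and 1 with the replicate. In DE2 untreated replicate 2, where the pair had 372 and 205 counts, Krt6b had 383 counts against 7 and 12 in the other untreated DE2 libraries. Krt16 had 668 against 199 and 134. Of the 14 stressed keratinocyte genes 10 were highest of the group in that library. Of the 18 neutrophil genes 12 had counts in the group, of which 6 were highest there and 1 lowest. Stfa2 had 11 counts against 2 and 0, and Cxcr2 had 0. The neutrophil list summed to 159 CPM in that library, of which Il1r2 made up 107.

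**Figure D5:**
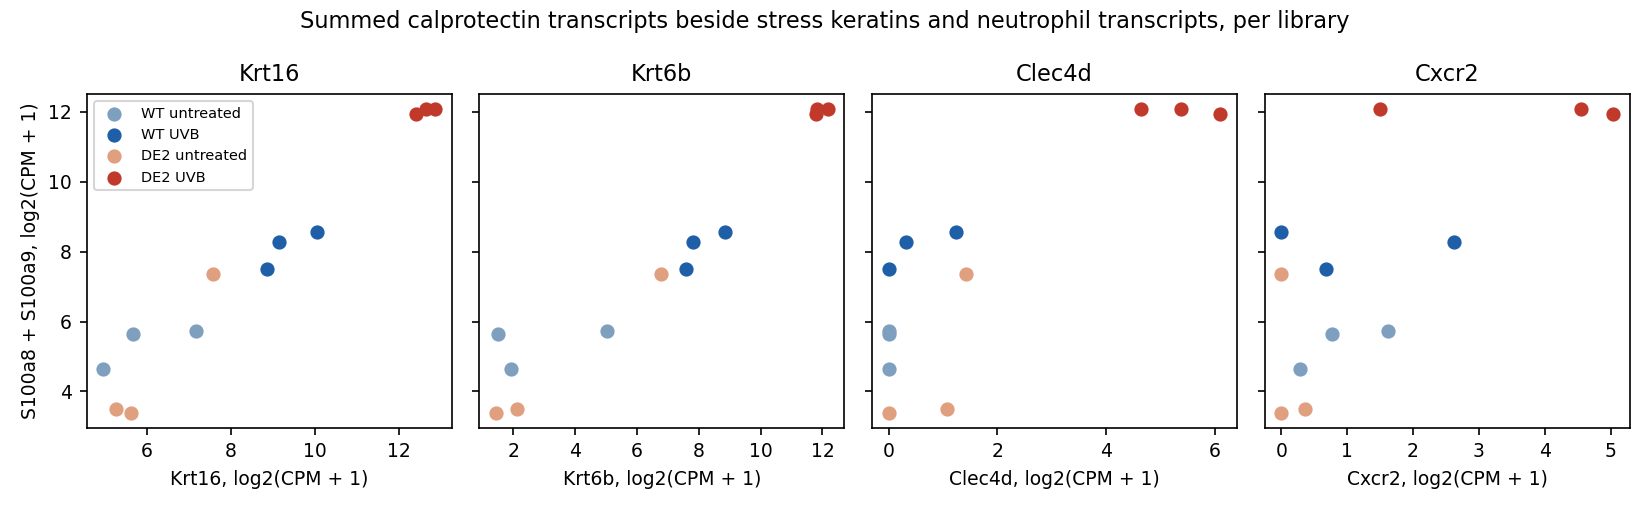
Summed S100a8 and S100a9 level against Krt16, Krt6b, Clec4d and Cxcr2 in each of the 12 libraries, all as log2(CPM + 1), coloured by group. The DE2 untreated library with 163 CPM of calprotectin sits apart from the other 2 of its group on the keratin axes. The DE2 UVB library at 1.82 CPM of Cxcr2, which is 5 counts, lies at 4363 CPM of calprotectin and those at 22.5 and 31.8 CPM at 4311 and 3926 CPM. Krt16 and Krt6b rank 1 and 2 in likeness to the pair over these same libraries. Clec4d and Cxcr2 reached the filter only through DE2 UVB. The panels therefore do not test which cells the transcripts came from.

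Of 12 monocyte and macrophage genes 11 passed the filter without the DE2 UVB libraries. Of these 11, edgeR called 0 higher and 0 lower in irradiated DE2 skin, with a median of 0.66. The other gene, Ly6c2, a surface protein gene of inflammatory monocytes, had 6, 6 and 0 counts in WT UVB and 75, 80 and 48 in DE2 UVB. It reached the filter only through DE2 UVB, so its higher level there is not a result. Of 4 T cell genes that passed the filter without DE2 UVB, Trbc2 alone was called (1.66 ± 0.30). Among the skin structural genes Krt14 (2.76 ± 0.32), Krt5 (1.44 ± 0.27) and Krt1 (1.64 ± 0.38) were higher, and Lor, which encodes loricrin of the cornified layer, was lower (-1.38 ± 0.31). Hair follicle genes were lower in 3 of 15, namely Lef1, Foxn1 and Krt86, and all 15 had groups that did not overlap. Over all genes tested 0.608% were called lower and 2.35% higher, and 21.3% had groups that did not overlap. Muscle genes were called in 0 of 12 in that comparison by edgeR, DESeq2 and limma voom, with 0 at an unadjusted p under 0.05.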

How the data were processed

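The authors deposited raw read counts per Ensembl gene for 12 bulk skin RNA libraries, without normalization. The submitters' processing notes name GRCm38 as the build and, in no stated order, HTSeq 2.0.2, SAMtools 1.16, Picard 3.1.0 and Trimmomatic 0.39. The sources used here do not give the aligner, annotation release, strand setting or duplicate handling. Symbols, positions and exon lengths came from GENCODE M21, which matched 53360 of 53465 identifiers. No row named anything but a gene. Replicates differed by more than sampling noise, so none was the same library read again. Each was treated as 1 sample, though whether replicates are separate animals is not known.

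Counts were fitted with edgeR 4.0.16 in R 4.3.3: edgeR's default filter on low counts by group (15126 genes), TMM factors, a robust quasi-likelihood fit with 1 mean for each group over all 12 libraries (8 residual degrees of freedom), and 5 contrasts with Benjamini-Hochberg adjustment. A gene reached the filter only through DE2 UVB where the same filter, applied to the other 9 libraries, dropped it (554 genes). The biological coefficient of variation was 35.8%. The SE was worked back from the test statistic. The fit was tested on simulated data. Ratios were tested with an exact permutation test, and motifs searched as plain letters in RefSeq promoters. Alternatives were RLE and total count scaling, no filter, a stricter filter (1 CPM in 3 libraries and 100 counts in all), DESeq2 1.42.0, limma voom 3.58.1, a fit of the compared libraries only, muscle and hair follicle scores as covariates, both libraries whose muscle share stood apart left out, and each library left out in turn.

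The members and the 14 gene lists were chosen with earlier results of these data known. Named are both members, the 3 tested genes of a list with the smallest p in a contrast, any tested receptor, NADPH oxidase or S100 gene, and the 8 genes most like the pair. Other genes are marked as such, were the only members called, or were named for their counts, position or filter status alone. Mmp8, Fpr1, Ly6g, Mpo, Ctsg, Ltf, Prtn3, Ngp, Camp and Elane were not tested. Like Cxcr2, Retnlg, Csf3r, Mmp9, Itgb2 and Il1r2 in DE2 UVB, they were named for their counts and not by a p. Il36a, Il36b and Il36g were found as Il1f6, Il1f8 and Il1f9, and Krt85 had no match. With 2809142 to 4741726 counts per library, 3 counts over a group correspond to 0.225 to 0.285 CPM. Intervals from counts cover counting error only.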

Additional observations from a re-analysis of the deposited data

Results flagged for a closer look

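The UVB change differed between the genotypes, by the interaction in edgeR with Benjamini-Hochberg adjustment, for more genes than the 10 given here. The 10 are all called S100 genes, all called receptors or partners, and the 3 stressed keratinocyte genes with the smallest p. Of the 14 stressed keratinocyte genes 10 passed, and of 15 hair follicle genes 14 did, as did members of other lists. Over all genes tested 5.64% were called higher and 4.84% lower. Values are the difference of log2 fold changes, DE2 minus WT. In the S100 family it was 5.44 ± 0.84 for S100a7a (adjusted p = 0.0012), 5.02 ± 0.59 for S100a3 (0.00011), 0.99 ± 0.28 for S100a11 (0.0357) and -1.31 ± 0.32 for S100a1 (0.0187). For S100a7a and S100a3 the untreated DE2 libraries, low in hair follicle and high in muscle content, were the low group. Among receptors and partners it was 2.97 ± 0.69 for Cd14 (0.0154), 2.02 ± 0.50 for Alcam (0.0189) and -1.68 ± 0.37 for Cd36 (0.0109). Among stressed keratinocyte genes it was 3.76 ± 0.62 for Krt6a (0.0016), 2.36 ± 0.32 for Krt17 (0.000338) and 4.48 ± 0.79 for Slpi (0.00271). For 3 of these the untreated DE2 libraries also stood apart from WT untreated: Alcam at 11.4 against 92.2 CPM, Krt17 at 547 against 1374 CPM and Cd36 at 358.5 against 173.5 CPM. With the hair follicle score as a covariate 1 gene passed the interaction in place of 1585. That score set the DE2 untreated libraries apart from all others, so this fit could not separate it from the interaction. The part of tissue content in these values was not tested. S100a8 and S100a9 themselves did not pass this test with all 12 libraries.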

How the results depend on the processing

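Without DE2 untreated replicate 2, the untreated library with the most calprotectin, UVB in WT passed (2.34 and 4.05 for S100a8 and S100a9), as did the interaction (6.57 and 4.46), and the untreated difference turned (-2.93 and -0.33). Over the 12 leave-one-out fits the ranges, S100a8 then S100a9, were 2.05 to 2.56 and 3.62 to 5.33 for UVB in WT, 5.27 to 8.91 and 5.98 to 8.51 for UVB in DE2, 3.44 to 3.90 and 3.82 to 4.35 for genotype in irradiated skin, -2.93 to 0.71 and -0.33 to 2.92 for genotype in untreated skin, and 2.93 to 6.57 and 1.21 to 4.46 for the interaction. The untreated S100a8 difference also turned without WT untreated replicate 1 (-0.20). The ratio differences ranged from -1.41 to -0.74 for UVB (passing at -1.32 without DE2 untreated replicate 3) and from -1.99 to -1.32 for genotype (not passing at -1.34 without that library).

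With the hair follicle covariate the pair did not pass for UVB in DE2 (14.01 and 14.5) or for genotype in irradiated skin (1.96 and 2.50). The untreated differences turned (-9.16 and -7.33). That score set the DE2 untreated libraries apart from all others, so it could not be separated from the contrasts that use them. The muscle covariate ended the S100a8 calls for UVB in DE2 (7.30) and genotype in irradiated skin (3.56) and turned the untreated differences (-1.33 and -0.35). The untreated S100a8 difference also turned with total counts (-0.33) and limma voom (-1.44). The S100a8 interaction passed with total counts (3.90) and limma voom (5.12), and the untreated S100a9 difference with both libraries of outlying muscle share left out (2.18). The cause of these changes was not tested. With no filter UVB in WT (2.33 and 4.03), the untreated S100a9 difference (1.67) and the interaction (3.50 and 2.46) passed, as the fit's degrees of freedom rose from 13.5 to 230992. DESeq2 gave no adjusted p for S100a9. Over the alternatives the genes called ranged from 130 to 1031 around 448 for genotype in irradiated skin, 0 to 4226 around 3477 in untreated skin, 1 to 4942 around 4202 for UVB in DE2, 0 to 141 around 3 for UVB in WT and 1 to 2585 around 1585 for the interaction.

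No paired analysis was possible because the labels give no replicate numbers and tie no library to an animal. Depth limits the untreated values, where S100a9 had as few as 12 counts and S100a8 as few as 12.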
